A study of Mus musculus with 12 samples.

Results

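Autophagy delivers cytoplasmic material to lysosomes, and 10 of its genes were followed here among the 29428 genes of the table. They were chosen by name: the cargo receptors *Sqstm1*, *Optn* and *Nbr1*, the ATG8 genes *Map1lc3a*, *Map1lc3b*, *Gabarap* and *Gabarapl1*, the initiation genes *Becn1* and *Ulk1*, and the conjugation gene *Atg5*. All 10 passed the filter on low values, with at least 732 estimated counts in every library. RNA-seq was performed on 2 mouse cell lines, with 3 libraries in each of 4 groups. STHdhQ7 cells carry huntingtin with 7 glutamines and STHdhQ111 cells the knock-in form with 111 glutamines, as the line names give it, both homozygous. Nontreated cells are called Q7-C and Q111-C, and cells kept for 24 h with murine IFNγ at 100 ng/mL and LPS at 5 μg/mL are called Q7-T and Q111-T. Both lines are immortalised, were grown at 33 °C and were used within 20 passages. As each genotype is represented by 1 line, the repeat length cannot be told apart from any other difference between the lines. The study calls the libraries of a group biological replicates. As neither it nor the labels say whether they came from separate cultures, the p-values measure the spread between these libraries only.

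In autophagy the ULK1 kinase complex starts the process, and Beclin 1 (*Becn1*) belongs to the lipid kinase complex that marks the site where the membrane forms. ATG5, joined to ATG12, helps to attach the small ATG8 proteins (LC3 and GABARAP) to the growing membrane. Receptors such as p62 (*Sqstm1*), optineurin (*Optn*) and NBR1 bind both ubiquitinated cargo and ATG8 proteins, and p62 collects on aggregates of mutant huntingtin. RNA levels do not measure the flow of cargo through the pathway, since p62 and lipid-bound LC3 are themselves degraded in lysosomes.

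The libraries held between 57505990 and 96417834 estimated counts. Q7-C replicate 1 and Q7-T replicate 2 stood apart in a slope of expression on gene length. It was -0.113 and -0.169 on the log2 scale per doubling of exon length, against -0.0145 to 0.0779 in the other 10 libraries. The deviations of Q111-T replicate 2 from its group had r = 0.50 with those of Q7-C replicate 1 and 0.29 with those of Q7-T replicate 2. For Q111-C replicate 1 these r were 0.16 and 0.43. Of the neuronal markers *Map2* and *Tubb3* were above the filter and *Dcx*, *Snap25*, *Syp* and *Syt1* were below it, although the cells are labelled as a striatal neuronal line. *Foxp1*, *Penk* and *Ppp1r1b* passed among the 5 medium spiny neuron markers measured. Of the mesenchymal markers 5 of 6 passed, and they did not separate the nontreated lines in 1 direction, with means (Q7-C first, Q111-C second) of 1670 and 43.7 TPM for *Acta2*, 14.6 and 250 TPM for *Col1a2* and 2493 and 2462 TPM for *Vim*. Their summed level was 3281 to 3703 TPM in Q7-T and 1485 to 1599 TPM in Q111-T. All 3 neural progenitor markers (*Nes*, *Sox2*, *Pax6*) passed, and their summed level separated the lines, at 75.0 to 127 TPM in Q7-C and 36.1 to 104 in Q7-T against 10.7 to 13.1 in Q111-C and 8.74 to 13.6 in Q111-T. The astrocyte markers, of which *Slc1a3* and *Aldh1l1* passed, summed to 1.05 to 1.62 TPM in Q7-C and 8.69 to 10.8 in Q111-C. *Slc1a3* made up most of that sum in Q111-C, while *Aldh1l1* had a mean of 0.364 TPM for Q7-C, above the 0.0384 TPM of Q111-C. The part of these lists in the differences between the lines was not tested. Of the macrophage and microglia markers only *Cd68* passed, and it made up most of their summed level of 5.93 to 8.45 TPM for Q7-C, 8.81 to 15.3 for Q7-T, 14.5 to 16.9 in Q111-C and 40.8 to 58.0 in Q111-T, while *Ptprc*, *Itgam*, *Adgre1* and *P2ry12* were at or near 0 and *Csf1r* had means between 0.128 TPM in Q7-T and 0.361 TPM in Q111-T.

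The start-site windows of 3 members are shown because *Optn* and *Ulk1* were the 2 members that rose with IFNγ/LPS in STHdhQ111 cells, and *Nbr1* because 1 of its windows holds the letters of an interferon-linked motif. Each window is RefSeq sequence of GRCm38.p6, 250 bases before to 50 after an annotated start, read 5′ to 3′ on the gene's strand, and capitals mark a motif. The *Optn* window is chr2:5064068-5064367 (minus strand), the *Ulk1* window chr5:110810032-110810331 (minus strand) and the *Nbr1* window, 1 of its 2, chr11:101552404-101552703 (plus strand).
Optn: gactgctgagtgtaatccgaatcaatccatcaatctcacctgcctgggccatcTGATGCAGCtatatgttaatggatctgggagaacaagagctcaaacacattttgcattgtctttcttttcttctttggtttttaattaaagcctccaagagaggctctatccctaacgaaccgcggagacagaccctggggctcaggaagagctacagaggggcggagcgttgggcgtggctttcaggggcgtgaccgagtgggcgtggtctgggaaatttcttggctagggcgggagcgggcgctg
Ulk1: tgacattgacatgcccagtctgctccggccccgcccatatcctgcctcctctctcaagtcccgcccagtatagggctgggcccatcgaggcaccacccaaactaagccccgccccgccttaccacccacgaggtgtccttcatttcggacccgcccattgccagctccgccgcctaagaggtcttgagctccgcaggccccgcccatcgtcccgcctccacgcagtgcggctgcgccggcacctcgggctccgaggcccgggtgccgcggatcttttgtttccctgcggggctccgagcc
Nbr1: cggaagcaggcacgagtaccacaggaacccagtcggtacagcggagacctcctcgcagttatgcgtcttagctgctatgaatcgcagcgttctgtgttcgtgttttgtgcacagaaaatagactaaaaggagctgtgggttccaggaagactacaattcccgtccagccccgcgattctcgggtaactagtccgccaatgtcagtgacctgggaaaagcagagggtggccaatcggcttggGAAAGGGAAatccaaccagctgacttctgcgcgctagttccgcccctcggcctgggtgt
Capitals in *Optn* mark TGANNNNGC, the core letters of the antioxidant response element. Capitals in *Nbr1* mark GAAANNGAA, core letters of the interferon-stimulated response element. No capitals are in *Ulk1*, as none of the 3 motifs given here was there. Windows were found for 8 of the 10 members, 9 windows in all, and both strands were searched. The response-element letters GAAANNGAA were in the 1 *Nbr1* window and in 8.56% of all 32851 windows. CACGTG, the E-box core bound by TFEB, was in the *Atg5* window and in 7.15% of all, and TGANNNNGC was in 3 windows (*Atg5*, *Map1lc3b*, *Optn*) and in 41.3% of all. A match is a description of letters and not a site.

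To ask how the members rank against each other, levels were compared as TPM (which divides counts by transcript length and library total). *Sqstm1* and *Gabarap* held the first 2 places in every library, with means of 481 and 331 TPM over the 12 libraries. They made up 43.3% and 29.8% of the summed TPM of the 10 members. *Gabarapl1* followed at 70.7 TPM. The other 7 lay between 17.6 TPM (*Ulk1*) and 41.0 TPM (*Nbr1*), and in Q7-C, Q7-T and Q111-T most neighbours in this lower stretch overlapped between libraries.

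The order moved between groups. In Q7-C *Sqstm1* was at 565 ± 99.9 TPM (SD, n = 3), apart from *Gabarap* at 273 ± 42.2 TPM. In Q111-C *Gabarap* led at 410 ± 22.1 TPM and overlapped *Sqstm1* at 392 ± 18.3 TPM. *Ulk1*, the kinase that starts the process, was last in every group by its mean, with 9.97 ± 2.50 TPM for Q7-C and 33.6 ± 11.3 TPM for Q111-T. In Q111-T its libraries overlapped those of its neighbour *Becn1* at 37.3 ± 4.86 TPM, while in Q111-C *Ulk1* at 16.4 ± 0.741 TPM was below every library of its neighbour *Optn* at 29.2 ± 1.76 TPM.

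From here on, values across libraries are TMM-scaled CPM (counts divided by the library total after trimmed-mean scaling, the scale of the test), in the order of replicates 1, 2 and 3. Adjusted p-values come from the quasi-likelihood test of edgeR and were adjusted by Benjamini-Hochberg over the 16127 genes tested, and a gene is called at an adjusted p under 0.05.

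**Figure D1:**
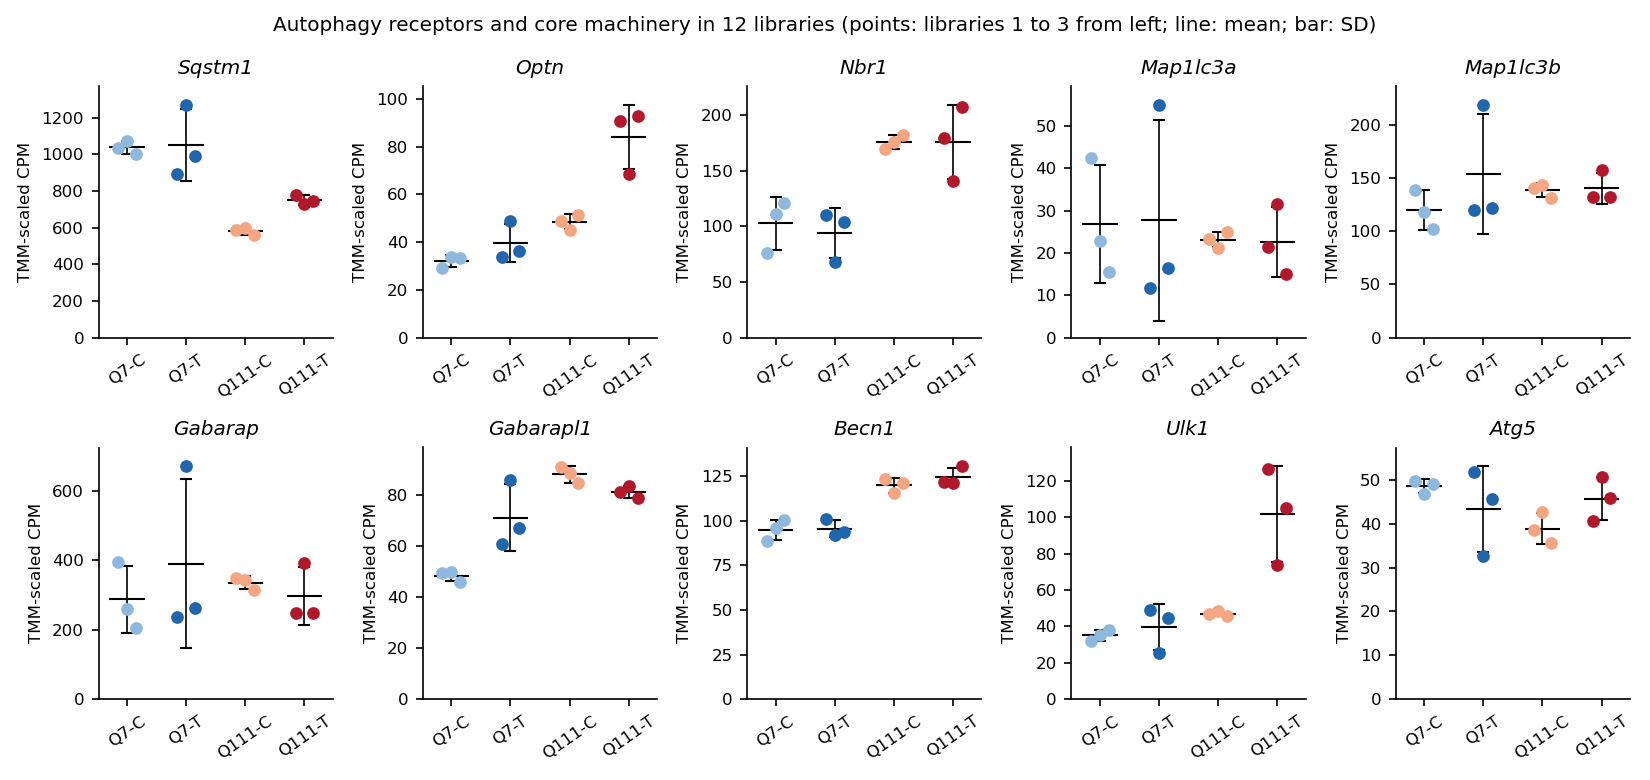
TMM-scaled CPM of the 10 members (vertical axes, each from 0) in the 4 groups (horizontal axes). Points are the 3 libraries of a group in replicate order, lines the means and bars the SD. The Q111-C and Q111-T points of *Sqstm1* lie below all Q7-C and Q7-T points, those of *Nbr1* and *Becn1* above them, and *Ulk1* is highest in Q111-T.

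The first question was how the nontreated lines differ. In Q111-C vs. Q7-C, 4 members were higher, *Optn*, *Nbr1*, *Gabarapl1* and *Becn1*, and 1 was lower, *Sqstm1*. With 1 library left out at a time the count ranged from 2 to 5, and it was 2 without Q7-C replicate 1, Q111-C replicate 1 or Q111-C replicate 3. The 5 of 10 compare with 22.7% of all genes tested, of which 11.1% were higher and 11.6% lower, and no member reached 2-fold (15.2% of all genes). As these are bulk samples, fewer cells that express a gene and less RNA per cell cannot be told apart. The libraries of the groups did not overlap for 7 of the 10 members, against 48% of all genes. The median log2 fold change of the members was 0.28, beside -0.02 over all genes tested.

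All 3 receptors differed between the lines, and not in the same direction. *Sqstm1* (ENSMUSG00000015837, chr11:50199366-50210827, minus strand) encodes p62, the most abundant receptor here. It measured 1037, 1073 and 1004 CPM in Q7-C and 584, 600 and 559 CPM in Q111-C. Every Q111-C library was thus below every Q7-C library, with a log2 fold change of -0.84 ± 0.15 (SE, adjusted p = 0.00137). The call stood in each of the 24 alternative settings, with values between -0.87 and -0.51.

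*Nbr1* (ENSMUSG00000017119, chr11:101552149-101581951, plus strand) encodes the receptor that works beside p62 on ubiquitinated aggregates. It measured 76.0, 111 and 121 CPM in Q7-C and 170, 176 and 182 CPM in Q111-C. The groups did not overlap, and the log2 fold change was 0.78 ± 0.22 (adjusted p = 0.0274). The call was lost without Q7-C replicate 1 (0.60, adjusted p = 0.0863) and without any 1 of the 3 Q111-C libraries, with adjusted p-values between 0.0537 and 0.0863 over these 4 settings.

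*Optn* (ENSMUSG00000026672, chr2:5020642-5064045, minus strand) encodes optineurin, a receptor for damaged mitochondria and bacteria that is phosphorylated by TBK1. It measured 29.1, 34.0 and 33.2 CPM in Q7-C and 49.0, 45.1 and 51.5 CPM in Q111-C. All Q111-C libraries were higher, with a log2 fold change of 0.60 ± 0.17 (adjusted p = 0.0280). The call was lost without Q7-C replicate 1, Q111-C replicate 1 or Q111-C replicate 3, with adjusted p-values between 0.0628 and 0.0808.

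Shares within a library do not depend on the scaling between libraries. Of the summed TPM of the 3 receptors, *Sqstm1* made up 92.9 ± 1.22% in Q7-C and 81.8 ± 1.10% in Q111-C (SD, n = 3). *Nbr1* made up 4.49 ± 1.04% and 12.1 ± 0.635%, and *Optn* 2.57 ± 0.183% and 6.11 ± 0.542%. For each receptor the libraries of both groups were apart. The exact two-sided permutation p was 0.1 for each of the 3, the smallest that 3 against 3 libraries can give. The 3 shares of a library add up to the whole, so they are tied and are not 3 separate results. The part of the length slope in these shares was not tested. *Sqstm1* was the largest component of the receptor pool in both lines.

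**Figure D2:**
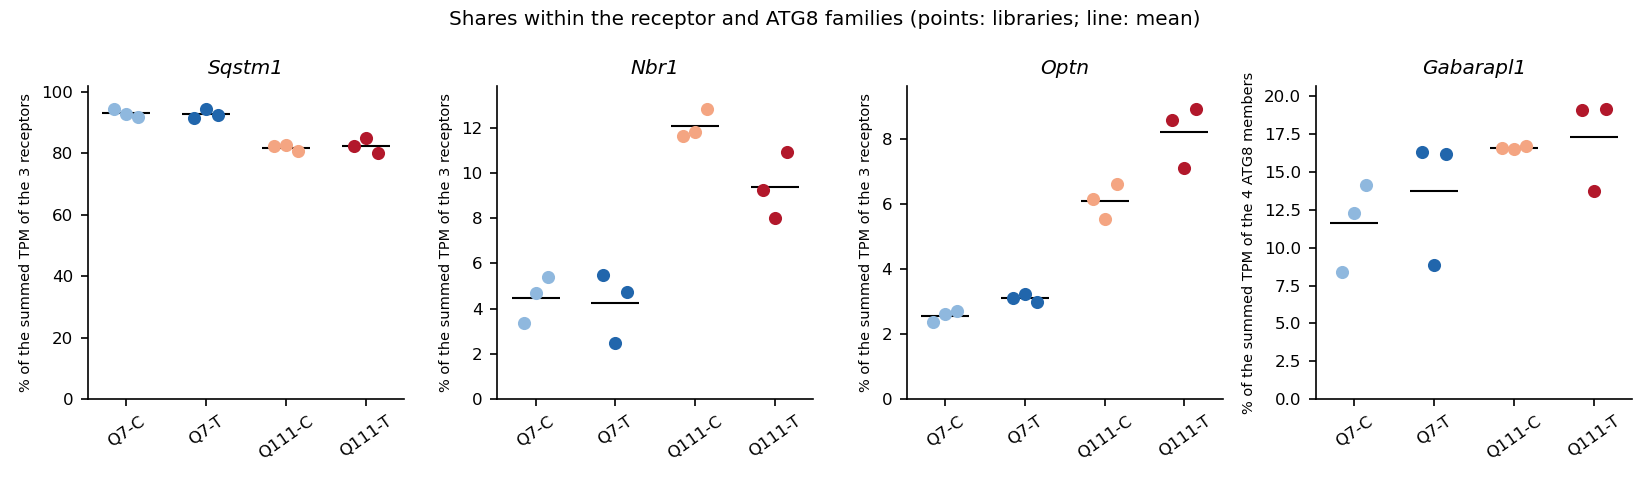
Share of *Sqstm1*, *Nbr1* and *Optn* in the summed TPM of the 3 receptors and of *Gabarapl1* in that of the 4 ATG8 members (vertical axes, percent) by group, with points for libraries and lines for means. The *Sqstm1* share has a mean of 92.9% in Q7-C and of 81.8% in Q111-C, and those of *Nbr1* and *Optn* are higher in both STHdhQ111 groups.

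Among the ATG8 genes only *Gabarapl1* was called between the nontreated lines. *Gabarapl1* (ENSMUSG00000030161, chr6:129533160-129542346, plus strand) encodes a GABARAP-type ATG8 protein. It measured 49.5, 49.7 and 45.7 CPM in Q7-C and 90.7, 88.6 and 84.4 CPM in Q111-C. The log2 fold change was 0.86 ± 0.14 (adjusted p = 9.05e-04), the largest increase among the members, and the call stood in all 24 alternative settings. Its share of the summed TPM of the 4 ATG8 members was 11.6 ± 2.92% in Q7-C and 16.6 ± 0.134% in Q111-C, without overlap (exact two-sided permutation p = 0.1).

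The other ATG8 members did not pass the test. *Gabarap* (ENSMUSG00000018567, chr11:69991143-69994951, plus strand), which supplied 70.9% of the summed TPM of the 4 ATG8 members in Q7-C and 62.8% with *Gabarapl2* counted in, measured 395, 260 and 206 CPM in Q7-C and 348, 343 and 313 CPM in Q111-C (log2 fold change 0.22 ± 0.38). *Map1lc3b* (ENSMUSG00000031812, chr8:121590361-121598760, plus strand), the LC3B gene whose protein is the usual marker of autophagosomes, measured 139, 118 and 102 CPM and 140, 144 and 131 CPM (0.21 ± 0.22). *Map1lc3a* (ENSMUSG00000027602, chr2:155276297-155278073, plus strand), which encodes LC3A, measured 42.5, 22.9 and 15.4 CPM and 23.3, 21.3 and 24.9 CPM (-0.22 ± 0.53). In all 3, Q7-C replicate 1 was the highest Q7-C library and the Q7-C libraries were more spread than those of Q111-C. When Q7-C replicate 1, Q7-T replicate 2 and Q111-T replicate 2 were left out, a setting chosen after seeing the data, *Gabarap* (0.52, adjusted p = 0.00269) and *Map1lc3b* (0.33, adjusted p = 0.00890) were called as higher in Q111-C, where 43.5% of all genes were called.

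*Becn1* (ENSMUSG00000035086, chr11:101285952-101302286, minus strand) measured 88.7, 95.7 and 100 CPM in Q7-C and 123, 115 and 121 CPM in Q111-C. The groups were apart, but the difference was small (log2 fold change 0.34 ± 0.11, adjusted p = 0.0490), and the call was lost in 8 of the 12 settings that leave out 1 library. With an offset for gene length it was 0.25 (adjusted p = 0.138). *Ulk1* (ENSMUSG00000029512, chr5:110784488-110810097, minus strand) measured 31.9, 35.5 and 37.8 CPM in Q7-C and 46.6, 48.5 and 45.9 CPM in Q111-C. Its libraries did not overlap, yet it missed the threshold (0.42 ± 0.24, adjusted p = 0.264). *Atg5* (ENSMUSG00000038160, chr10:44268358-44364291, plus strand) measured 49.7, 46.7 and 49.0 CPM and 38.4, 42.6 and 35.7 CPM, again apart and not called (-0.32 ± 0.17, adjusted p = 0.230).

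The scaling bears on these differences. On log2(TPM + 0.5) the median of all genes tested shifted by 0.27 in Q111-C vs. Q7-C and by 0.34 in Q111-T vs. Q7-T, against -0.02 and -0.03 on the TMM scale. On that TPM scale limma gave -0.51 for *Sqstm1* in Q111-C vs. Q7-C, still called.

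The second question was what IFNγ/LPS changed within each line. In Q7-T vs. Q7-C, 1 of 10 members was called, *Gabarapl1*, which was higher, against 5.35% of all genes tested (3.61% higher, 1.74% lower). Groups were apart for 2 of the 10, *Gabarapl1* and, narrowly, *Optn*, against 16% of all genes. *Gabarapl1* measured 60.5, 85.7 and 66.8 CPM in Q7-T, above its Q7-C values of 45.7 to 49.7 CPM. The log2 fold change was 0.56 ± 0.14 (adjusted p = 0.0434), and the call stood in 8 of 24 alternative settings, with adjusted p-values between 0.00253 and 0.344. In the same comparison *Tubb3* was at means of 16.9 TPM in Q7-C and 74.6 TPM in Q7-T, *Map2* at 7.93 and 2.13 TPM, *Col1a1* at 265 and 87.6 TPM and *Cd68* at 7.09 and 11.7 TPM. The part of these markers in the result was not tested.

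The remaining 9 members had log2 fold changes between -0.16 (*Atg5*) and 0.44 (*Gabarap*) in STHdhQ7 cells. Q7-T replicate 2 was the highest library of all 12 for *Gabarap* (671 CPM, against 237 and 261 CPM in the other Q7-T libraries), *Map1lc3a* (55.1 CPM, against 11.8 and 16.4 CPM) and *Map1lc3b* (219 CPM, against 120 and 122 CPM). It was the lowest of all 12 for *Nbr1* (68.4 CPM), *Ulk1* (25.3 CPM) and *Atg5* (32.7 CPM). Without this library the Q7-T mean would be 249 instead of 390 CPM for *Gabarap* and 14.1 instead of 27.8 CPM for *Map1lc3a*, while those of the other 4 genes would move by at most 1.27 times. The part of the length slope in these values was not tested.

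In Q111-T vs. Q111-C, 2 of 10 members rose, *Optn* and *Ulk1*, against 18.7% of all genes tested (11.3% higher, 7.33% lower), and none fell. *Ulk1* also passed 2-fold, as did 11.2% of all genes. *Ulk1* measured 126, 73.8 and 105 CPM in Q111-T, above the 45.9 to 48.5 CPM of Q111-C. The log2 fold change was 1.11 ± 0.25 (adjusted p = 0.00791), a 2.16-fold increase. *Optn* measured 90.9, 68.5 and 92.8 CPM in Q111-T, above the 45.1 to 51.5 CPM of Q111-C, with a log2 fold change of 0.79 ± 0.17 (adjusted p = 0.00752). In both genes Q111-T replicate 2 was the lowest of the 3 treated libraries and still above every Q111-C library. Both calls stood in all 12 settings that leave out 1 library and were lost with limma on log2(TPM + 0.5), where *Ulk1* was at 0.96 (adjusted p = 0.134) and *Optn* at 0.67 (adjusted p = 0.0681).

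*Sqstm1* measured 778, 729 and 745 CPM in Q111-T, apart from the 559 to 600 CPM of Q111-C, but missed the threshold (0.37 ± 0.14, adjusted p = 0.107). Without Q7-T replicate 2, which adds to the common estimate of the spread, it was called (0.37, adjusted p = 0.0149). Groups were apart for 4 of the 10 members, against 49.7% of all genes. The values of *Becn1* (122, 121 and 131 CPM in Q111-T, log2 fold change 0.05 ± 0.11) and *Nbr1* (179, 141 and 208 CPM, 2.66e-04 ± 0.22) lay on or around those of Q111-C. *Gabarapl1*, at 81.1, 83.5 and 78.5 CPM in Q111-T, was below its Q111-C libraries without passing the test (-0.12 ± 0.14). *Map1lc3a*, *Map1lc3b*, *Gabarap* and *Atg5* had log2 fold changes between -0.18 and 0.23 and none was called. Like *Optn* and *Ulk1*, *Cd68* and the summed macrophage markers were higher in Q111-T than in Q111-C. The defining markers *Ptprc*, *Itgam* and *Adgre1* were at or near 0, and *Csf1r* was at means of 0.209 (Q111-C) and 0.361 TPM (Q111-T). Within Q111-T *Cd68* was highest in replicate 2 (27.4, 38.7 and 22.5 CPM), where *Optn* and *Ulk1* were lowest. Of the neuronal markers *Tubb3* was at means of 3.91 TPM in Q111-C and 24.7 TPM in Q111-T and *Map2* at 5.90 and 5.61 TPM. Of the astrocyte markers *Slc1a3* was at 9.86 and 2.75 TPM and *Aldh1l1* at 0.0384 and 1.32 TPM. In the same comparison the summed mesenchymal markers were at 3528 to 3676 TPM in Q111-C and at 1485 to 1599 TPM in Q111-T, with *Vim* at means of 2462 and 1186 TPM and *Col1a2* at 250 and 40.1 TPM. The part of these markers in the results was not tested.

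The difference between the 2 responses was tested as an interaction, in which a positive value is a larger response in STHdhQ111 cells. None of the 10 members was called with edgeR, against 5.7% of all genes, and 2 had an unadjusted p under 0.05. These were *Gabarapl1* (-0.67 ± 0.20, adjusted p = 0.0760) and *Ulk1* (0.94 ± 0.35, adjusted p = 0.154). DESeq2 called 1 member, *Gabarapl1*, and limma called 0. Without the 3 libraries named above 27.8% of all genes were called, and among them 5 members: *Ulk1* (0.99, adjusted p = 9.49e-04), *Optn* (0.90, adjusted p = 7.11e-04), *Sqstm1* (0.57, adjusted p = 0.00465), *Gabarapl1* (-0.51, adjusted p = 0.0110) and *Gabarap* (-0.49, adjusted p = 0.0394). With all 12 libraries, the rise of *Optn* and *Ulk1* in STHdhQ111 cells was therefore not shown to differ from their values in STHdhQ7 cells (0.30 ± 0.17 and 0.18 ± 0.24).

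The treated lines were compared with each other in Q111-T vs. Q7-T. Here 5 of 10 members were called (4 higher, 1 lower), against 38.4% of all genes tested (19.8% higher, 18.7% lower), and groups were apart for 5 of 10, against 48.7%. *Ulk1* was 2.57-fold higher in Q111-T (log2 fold change 1.36 ± 0.25, adjusted p = 0.00134), with Q7-T libraries at 48.9, 25.3 and 44.6 CPM. *Optn* was 2.12-fold higher (1.09 ± 0.17, adjusted p = 5.91e-04), with Q7-T libraries at 34.0, 48.7 and 36.1 CPM. These 2 were the members past 2-fold, against 24.5% of all genes, and both calls stood in all 24 alternative settings.

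*Nbr1* was higher in Q111-T (0.90 ± 0.23, adjusted p = 0.00868) and so was *Becn1* (0.38 ± 0.11, adjusted p = 0.0189), with Q7-T libraries at 110, 68.4 and 104 CPM and at 101.0, 92.0 and 93.8 CPM. The *Becn1* call was lost without Q7-T replicate 3 (adjusted p = 0.0572) or Q111-T replicate 3 (adjusted p = 0.0630), and with the offset for gene length it was at 0.13 (adjusted p = 0.390). *Sqstm1* was lower in Q111-T (-0.49 ± 0.14, adjusted p = 0.0208), with Q7-T libraries at 891, 1271 and 992 CPM. That call was lost without any 1 of the 3 Q111-T libraries (adjusted p from 0.0527 to 0.0678), and on log2(TPM + 0.5) the difference was -0.06 (limma adjusted p = 0.804). The share of *Sqstm1* among the receptors, which the scaling does not touch, was 92.6 ± 1.49% in Q7-T and 82.4 ± 2.36% in Q111-T, without overlap (exact two-sided permutation p = 0.1). The share of *Optn* was 3.11 ± 0.113% in Q7-T and 8.21 ± 0.954% in Q111-T, and that of *Nbr1* 4.24 ± 1.57% and 9.39 ± 1.46%.

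*Gabarapl1* had been higher in the nontreated STHdhQ111 cells, and in the treated cells its libraries overlapped (0.19 ± 0.14, adjusted p = 0.304). Q7-T replicate 2 was the Q7-T library at 85.7 CPM, above all 3 Q111-T libraries. Without it the difference was 0.35 and called (adjusted p = 0.0237). The 3 other ATG8 members and *Atg5* were not called, with log2 fold changes between -0.39 (*Gabarap*) and 0.07 (*Atg5*). The direction of *Gabarap* turned without Q7-T replicate 2 (0.25, adjusted p = 0.498).

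Across the 12 libraries members fell into sets that moved together, given as a description because the libraries share lines, treatment and the length slope. On log2(CPM + 0.5), *Map1lc3b* and *Gabarap* had r = 0.94, *Map1lc3a* and *Gabarap* 0.90, *Nbr1* and *Becn1* 0.93, and *Optn* and *Ulk1* 0.83. *Sqstm1* ran against *Nbr1* (r = -0.86) and *Becn1* (r = -0.85). The length slope of the libraries had r = -0.85 with *Gabarap*, -0.82 with *Map1lc3a*, -0.72 with *Map1lc3b* and -0.57 with *Sqstm1*. It had r = 0.85 with *Nbr1*, 0.69 with *Ulk1*, 0.66 with *Becn1*, 0.38 with *Optn*, 0.26 with *Atg5* and 0.05 with *Gabarapl1*. The exon sequence of *Gabarap* covers 1844 bases and that of *Map1lc3a* 1181 bases, against 6871 bases in *Nbr1*. Length did not order all members by this r, as *Map1lc3b* covers 7517 bases and *Gabarapl1* 2013 bases.

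**Figure D3:**
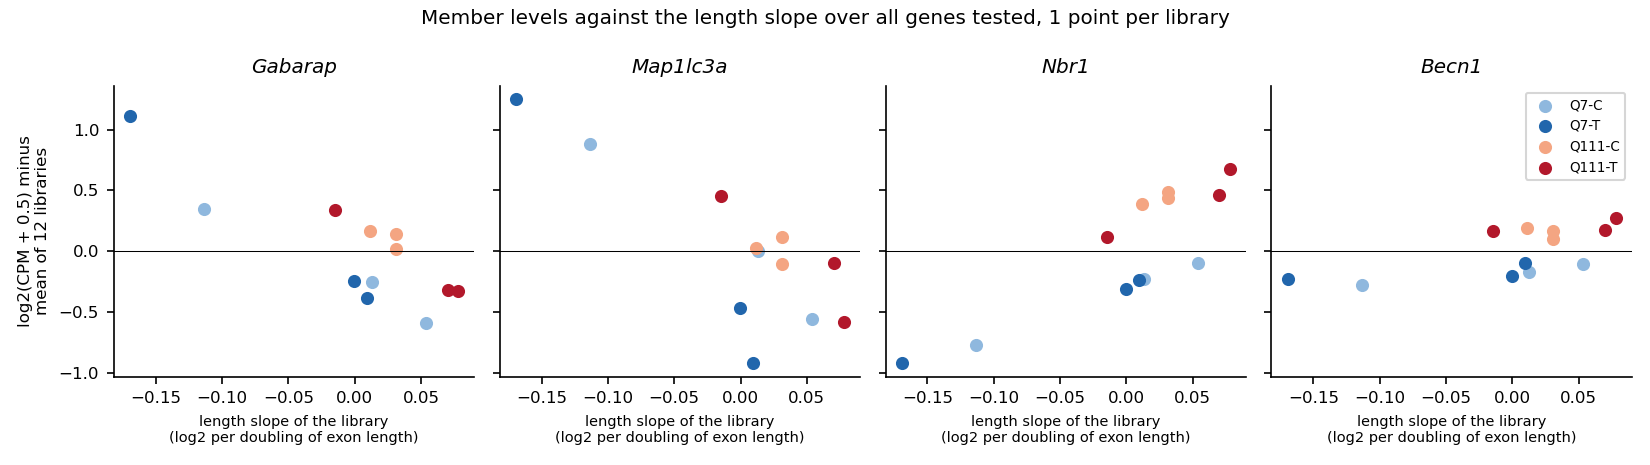
Level of *Gabarap*, *Map1lc3a*, *Nbr1* and *Becn1* in each library, as log2(CPM + 0.5) minus the mean of the 12 libraries (vertical axis), against the library's slope of expression on exon length (horizontal axis), coloured by group. The 2 libraries at the left, Q7-T replicate 2 at -0.169 and Q7-C replicate 1 at -0.113, are high in *Gabarap* and *Map1lc3a* and low in *Nbr1*. They are also the lowest in *Becn1* (-0.228 and -0.280), which in addition separates by line.

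*Ulk1* and *Optn* had the widest range of group means, 1.49 and 1.37 on the log2 scale. The genes most like *Ulk1* over the 12 libraries were *Cdc42bpg*, *Itprip* and *Sbk1* (each r = 0.98). Those most like *Optn* were *Plekhn1*, *Zdhhc23* and *2310001H17Rik* (each r = 0.98).

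The other genes of the pathway were described with a list of 51, all of which passed the filter. In Q111-C vs. Q7-C 10 were called (8 higher, 2 lower; 19.6%), in Q111-T vs. Q7-T 15 (13 higher, 2 lower; 29.4%), in Q7-T vs. Q7-C 6 (4 higher, 2 lower; 11.8%) and in Q111-T vs. Q111-C 9 (7 higher, 2 lower; 17.6%). Over all genes tested the shares called were 22.7%, 38.4%, 5.35% and 18.7%. Whether the shares of the list differ from these was not tested. When single libraries were left out in turn, the genes of the list called ranged from 6 to 16 in Q111-C vs. Q7-C. They ranged from 13 to 17 in Q111-T vs. Q7-T, from 3 to 7 in Q7-T vs. Q7-C and from 6 to 13 in Q111-T vs. Q111-C. The median log2 fold changes were 0.25, 0.33, 0.04 and 0.07, beside -0.020, -0.029, 0.0033 and -0.0050 over all genes tested.

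With IFNγ/LPS, *Bnip3*, *Bnip3l* and *Retreg1* were called among the 9 other cargo receptors in each line, and *Retreg1* fell in STHdhQ7 and rose in STHdhQ111 cells. The remaining calls were *Atg9b*, *Plekhm1* (higher) and *Tfeb* in STHdhQ7 cells and *Atg9b*, *Atg12* (higher), *Tbk1*, *Tfeb*, *Tfe3* (lower) and *Foxo3* in STHdhQ111 cells. In limma on log2(TPM + 0.5) *Plekhm1* (adjusted p = 0.357), *Atg12* (0.419) and *Tfe3* (0.109) were not called. *Plekhm1* was also lost with only the groups compared (edgeR adjusted p = 0.0746) and *Atg12* with the replicate block (edgeR adjusted p = 0.0520). *Bnip3*, a mitophagy receptor on the outer mitochondrial membrane, measured 17.8, 13.3 and 9.24 CPM in Q7-C and 44.0, 52.5 and 35.6 CPM in Q7-T. It measured 24.2, 22.9 and 23.6 CPM in Q111-C and 137, 227 and 155 CPM in Q111-T. It rose in both lines, by 1.71 ± 0.26 (adjusted p = 0.00164) and 2.88 ± 0.27 (adjusted p = 1.78e-05) on the log2 scale. Both *Bnip3* calls stood in all 24 alternative settings. Its relative *Bnip3l* rose by 0.52 ± 0.13 (adjusted p = 0.0381) and 0.88 ± 0.13 (adjusted p = 5.83e-04), of which the first call stood in 7 of 24 settings and the other in 21. *Tbk1*, the kinase that phosphorylates optineurin, rose in STHdhQ111 cells (0.93 ± 0.21, adjusted p = 0.00816). *Tbk1* was picked after its value was seen, and its call was lost in the 3 limma fits.

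*Tfeb*, a transcription factor for lysosomal and autophagy genes, fell in both lines. It measured 68.9, 44.4 and 42.7 CPM in Q7-C, 28.2, 33.7 and 31.5 CPM in Q7-T, 22.6, 22.3 and 20.3 CPM in Q111-C and 8.25, 8.85 and 7.73 CPM in Q111-T. The log2 fold change was -0.74 ± 0.19 in STHdhQ7 cells (adjusted p = 0.0420) and -1.39 ± 0.19 in STHdhQ111 cells (adjusted p = 3.17e-04). The call in STHdhQ7 cells stood in 10 of the 24 alternative settings, with adjusted p-values up to 0.300, and that in STHdhQ111 cells in all 24. The Q111-C level was also below that of Q7-C (-1.26 ± 0.19, adjusted p = 4.81e-04). *Foxo3*, a forkhead factor for autophagy genes, rose in STHdhQ111 cells from 25.7, 30.6 and 24.9 to 119, 79.8 and 122 CPM (1.98 ± 0.33, adjusted p = 0.00122).

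Between the lines, *Mitf*, a relative of *Tfeb*, was higher in both STHdhQ111 groups (1.23 ± 0.26 and 1.81 ± 0.26), as was *Atg10* (1.04 ± 0.27 and 1.12 ± 0.27), the E2-like enzyme that joins ATG12 to ATG5. The *Atg10* call between the nontreated lines was lost without Q7-C replicate 3 (adjusted p = 0.0502). Both were low genes, with *Mitf* at 1.70 CPM and *Atg10* at 1.70 CPM in Q7-C. The proteases *Atg4a* (1.06 ± 0.26) and *Atg4c* (1.18 ± 0.30), which process ATG8 proteins, exceeded their Q7-T level in Q111-T. Without Q7-C replicate 1, Q7-T replicate 2 and Q111-T replicate 2 they were at 0.79 and 0.92, still called but under 2-fold. The Q7-T libraries of *Atg4a* lay between 6.36 and 13.8 CPM.

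*Atg9b*, which encodes an ATG9-type membrane protein, measured 2.17, 2.71 and 2.42 CPM in Q7-C, 4.27, 5.59 and 4.62 CPM in Q7-T, 2.98, 3.96 and 2.55 CPM in Q111-C and 70.3, 52.1 and 59.0 CPM in Q111-T. It rose by 0.98 ± 0.20 in STHdhQ7 cells (adjusted p = 0.0140) and by 4.26 ± 0.23 in STHdhQ111 cells (adjusted p = 2.97e-07). The first call stood in 19 of 24 settings and was lost without Q7-C replicate 3, with only the groups compared and in the 3 limma fits, and the other stood in all 24. Its span overlaps *Nos3* on the opposite strand, and whether the counting used the strand is not stated, so reads of the 2 genes may not have been told apart. Among the members, *Sqstm1*, *Optn*, *Map1lc3b*, *Gabarapl1* and *Becn1* also overlap a gene on the other strand.

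**Figure D4:**
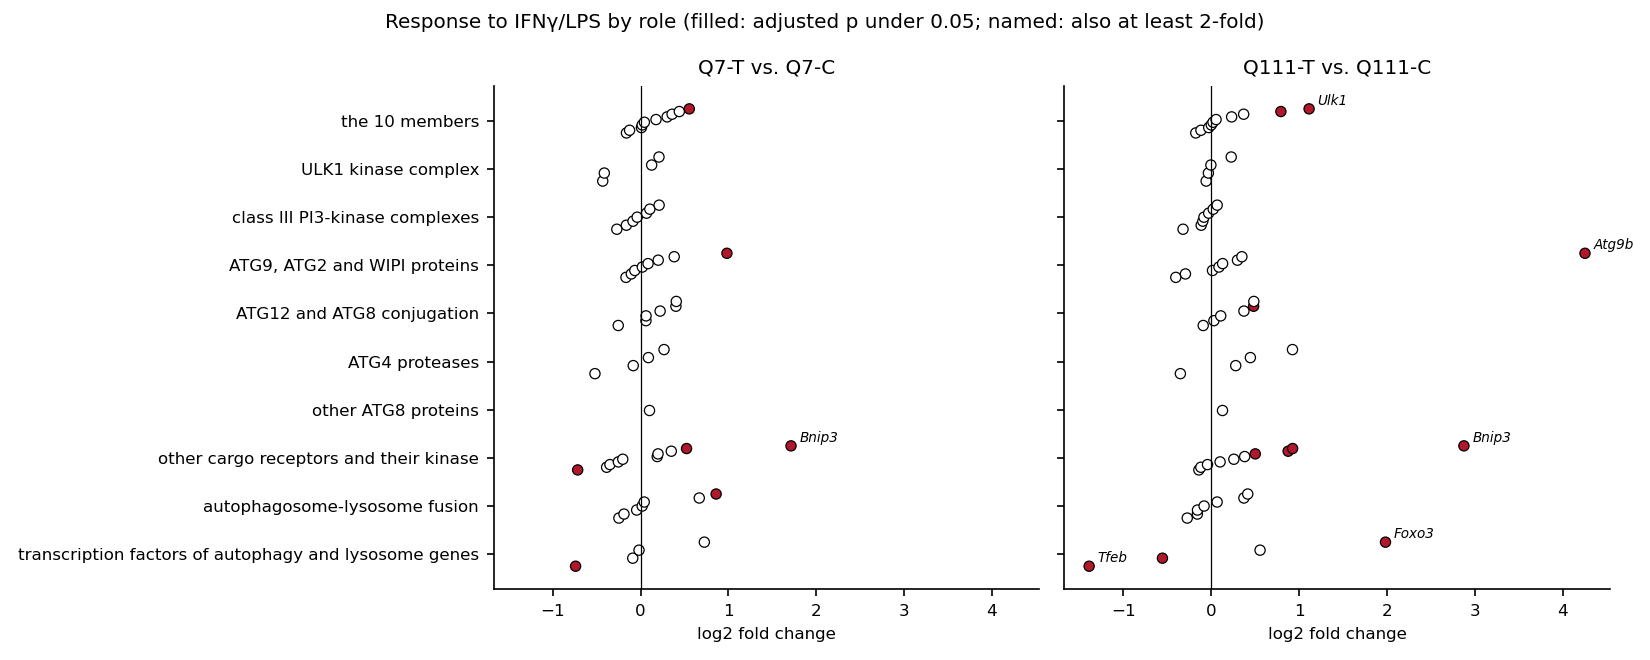
Log2 fold change with IFNγ/LPS (horizontal axes) in STHdhQ7 and STHdhQ111 cells for the 10 members and the 51 other autophagy genes by role (vertical axis). Each point is a gene, filled where its adjusted p is under 0.05 and named where it also reached 2-fold. *Ulk1* is the 1 member named, and *Atg9b*, *Bnip3*, *Foxo3* and *Tfeb* are named in STHdhQ111 cells.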

How the data were processed

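Poly(A) RNA of 12 libraries was sequenced as paired-end stranded TruSeq libraries. The authors trimmed reads with Cutadapt, used HISAT2 to map them to GRCm38 and StringTie to estimate expression, and whether the counting used the strand is not given in the sources used here. The deposited table holds TPM values (summing to between 688352 and 719623 per library) and estimated counts that were not normalized. Low counts are enriched at multiples of 4, so 1 read pair may stand for 4 counts, which would give 14376498 to 24104458 read pairs per library. The study does not state this.

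Estimated counts were rounded and tested with edgeR 4.0.16 (quasi-likelihood, TMM) in R 4.3.3, all 12 libraries in one fit with a mean per group, keeping the 16127 genes that reached 0.5 TPM in 3 or more libraries. The SE is the log2 fold change divided by the root of its F statistic. The script was tested on simulated data. Alternatives were no filter, a minimum of 1 TPM, RLE size factors, DESeq2 1.42.0, limma 3.58.1 on log2(TPM + 0.5, 0.1 or 1), counts divided by 4, only the groups compared, the replicate block and each library left out. 2 alternatives were chosen after seeing the data: leaving out 3 libraries (Q7-C replicate 1, Q7-T replicate 2, Q111-T replicate 2), and a loess offset for exon length (GENCODE M21).

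The members and gene lists were chosen with earlier results of these data known. Genes named were the 10 members, listed pathway genes called at 2-fold or more in any of the 4 comparisons of 2 groups, and, for the 2 members of widest range, the 3 genes of highest Pearson r. *Tbk1*, *Retreg1*, *Plekhm1*, *Atg12* and *Tfe3* were named outside this rule, after their values were seen. The comparisons share groups, so they are not independent of each other. No 2 libraries of a group agreed within sampling noise. A further promoter motif is not reported here.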

Additional observations from a re-analysis of the deposited data

Results flagged for a closer look

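The response to IFNγ/LPS differed between the lines for 2 of the 51 other autophagy genes, and for none of the 10 members, by the interaction test of edgeR, which called 5.7% of all genes tested (3.92% of the 51). *Atg9b* rose in both lines, and its response was larger in STHdhQ111 cells by 3.27 ± 0.29 on the log2 scale (adjusted p = 1.72e-04), with all 3 Q111-T libraries between 52.1 and 70.3 CPM and all 9 others under 6 CPM. *Retreg1*, which encodes a receptor for autophagy of the endoplasmic reticulum, fell in STHdhQ7 cells (-0.72 ± 0.16, adjusted p = 0.0187) and rose in STHdhQ111 cells (0.50 ± 0.15, adjusted p = 0.0433), calls that stood in 16 and 9 of the 24 alternative settings. Its interaction was 1.22 ± 0.22 (adjusted p = 0.00801), a call lost in the 3 limma fits, with 55.6, 69.3 and 69.9 CPM in Q7-C, 46.2, 35.4 and 37.0 CPM in Q7-T, 36.7, 43.1 and 39.9 CPM in Q111-C and 51.3, 56.4 and 61.8 CPM in Q111-T.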

How the results depend on the processing

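Of the values of single members under the alternatives, 1104 kept their side of the threshold, 60 lost and 26 gained a call, and none that was called turned its direction. Where a value was not called in either fit, its sign carried no call. Members called in Q7-T vs. Q7-C fell from 1 to 0 with no filter, with each of the 3 limma fits, with only the groups compared and with the replicate block. Members called in Q111-T vs. Q111-C fell from 2 to 0 with each limma fit. In limma on log2(TPM + 0.5), *Nbr1* (1.11, adjusted p = 0.0638) and *Becn1* (0.65, adjusted p = 0.0761) in Q111-C vs. Q7-C were not called and *Map1lc3b* (0.53, adjusted p = 0.00945) was. Each limma fit called 2 pathway genes in Q7-T vs. Q7-C (6 with edgeR) and 4 in Q111-T vs. Q111-C (9 with edgeR). With only the groups compared, members called in Q111-T vs. Q7-T were 3, and pathway genes were 1 in Q7-T vs. Q7-C and 16 in Q111-T vs. Q111-C. DESeq2 called 1 member in the interaction.

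Of the 3 pairs of same-numbered libraries, 2, 2, 1 and 0 had r over 0.1 between their deviations in the 4 comparisons. In Q7-T vs. Q7-C the pairs ranged from -0.60 to 0.43. With 3 libraries per group this cannot decide whether same-numbered libraries share more than a number, and the labels do not say. With the replicate block 3 members were called in Q111-C vs. Q7-C instead of 5 and 3 pathway genes in Q7-T vs. Q7-C instead of 6.

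Without the 3 libraries, 9 members were called for Q111-C vs. Q7-C, 4 members for Q111-T vs. Q111-C, and 5 for the interaction, and pathway genes 27, 29, 11, 22 and 17 in the 5 comparisons, where 43.5%, 54%, 13.9%, 42.5% and 27.8% of all genes were called. With the length offset the interaction called 1 member and 4 pathway genes. Leaving out 1 library at a time, members called ranged from 2 to 5 for Q111-C vs. Q7-C (2 without Q7-C replicate 1, Q111-C replicate 1 or Q111-C replicate 3), from 3 to 6 in Q111-T vs. Q7-T (3 without Q111-T replicate 3), from 0 to 1 in Q7-T vs. Q7-C, from 2 to 3 in Q111-T vs. Q111-C and, for the interaction, from 0 to 1 (1 without Q7-T replicate 1 or 2). Pathway genes ranged from 6 to 16 (16 without Q7-T replicate 2), 13 to 17, 3 to 7, 6 to 13 and 2 to 3. The cause of these shifts was not tested. The lowest estimated count of any member in any library was 732.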

Other observations

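*Sqstm1*, *Nbr1*, *Gabarap* and *Becn1*, 4 of the 10 members, lie on chromosome 11. *Becn1* and *Nbr1*, which had r = 0.93 over the 12 libraries and were both higher in STHdhQ111 cells, are 249862 bases apart (GRCm38). The stretch between them was looked at after their values were seen. It holds 14 genes tested, of which 2 were higher and 0 lower in Q111-C vs. Q7-C (median log2 fold change -0.013) and 0 were higher and 3 lower in Q111-T vs. Q7-T (median -0.45), by edgeR at an adjusted p under 0.05. Over all genes tested 22.7% and 38.4% were called in these comparisons. With 14 genes the stretch is too small for its share to be set apart from these, and the difference was not tested.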
